A study of Homo sapiens with 28 samples.

Results

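The 9 genes described here are markers of neuroendocrine differentiation, and they were taken as the rows of the count table whose symbol is ENO2, CHGA, CHGB, SYP, SCG2, SCG3, TUBB3, INSM1 or REST, which gave 9 of 61815 genes with 1 row each. They were measured by RNA-seq in LNCaP, a human prostate cancer line that responds to androgen and carries no genetic change made for the study (genotype WT), in 28 libraries of 8 groups. All cells were kept for 72 h in charcoal-stripped serum (CSS), from which steroids have been removed, before treatment began. In the first experiment they were treated for 24 h with vehicle (0.1% DMSO), Senexin B at 1 µM, R1881 at 0.1 nM, or R1881 with Senexin B, with 3 libraries per group. In the second they were treated for 72 h with vehicle, SNX631 at 500 nM, R1881 at 1 nM, or R1881 with SNX631, with 4 libraries per group. R1881 is a synthetic androgen, and both Senexin B and SNX631 block the Mediator kinases CDK8 and CDK19. Doses are those of the labels (the text of the study gives another dose for Senexin B). Every group is a population of 1 line, no library is from untreated or androgen-replete culture, and time, androgen dose, inhibitor and experiment change together between the experiments and cannot be told apart. The labels number the replicates without saying what was separate between them, and the study calls them biological, so p values measure the spread between these libraries. That spread was small: the common coefficient of variation beyond counting error was 2.72% at 24 h and 2.38% at 72 h.

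Neuroendocrine cells are sparse secretory cells of the prostate epithelium that share a program with neurons. They store peptides in dense-core vesicles, whose cargo includes the granins. Prostate adenocarcinoma cells can take on part of this program when androgen signaling is lost, and LNCaP cells are a common model of that change. REST is the transcriptional repressor that keeps many neuronal genes silent in other cell types by recruiting corepressors to a DNA element named RE1, and INSM1 is a zinc-finger transcription factor of neuroendocrine cells.

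Of the 9 markers, 4 were expressed above the filter on low counts (ENO2, TUBB3, REST and SYP) and 5 were not (CHGA, CHGB, SCG2, SCG3 and INSM1). R1881 lowered ENO2, the neuron-specific enolase of glycolysis, by 38.8% to 49.1% in both experiments, with or without inhibitor. TUBB3, the neuronal class of beta tubulin, did not pass the test with R1881 alone at either time, and it fell by 38.2% with R1881 when SNX631 was present. REST moved by less than the fold limit in every comparison, and SYP, the synaptic vesicle protein synaptophysin, stood at the edge of detection. Levels are CPM (counts relative to the library total) scaled with TMM over the 28 libraries, and a gene is said to rise or fall where the FDR, from edgeR's quasi-likelihood test with Benjamini-Hochberg adjustment over all genes tested, was under 0.01 and the fold change over 1.5.

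Total counts per library ranged from 9846595 to 33809419, the highest in replicate 3 of the 24 h vehicle group. The androgen treatment was visible in KLK3, the gene of prostate-specific antigen, whose mean level went from 1.5 to 111.6 CPM with R1881 at 24 h and from 1.4 to 136.8 CPM at 72 h. Luminal markers were also expressed without androgen, with 24 h vehicle means of 1485 CPM for FOLH1, 705 CPM for KRT8 and 467 CPM for HOXB13, whereas KLK2 and KLK3 were below 2 CPM in all 4 groups without R1881. Of the neuroendocrine markers used to check the label and reported here, INSM1 and NEUROD1 had no read in any library, CHGA had at most 1 read, NCAM1 at most 7 and SYP at most 30. Other genes of the program were well expressed, with group means of 20.9 to 42.7 CPM for ENO2, 26.3 to 61.0 CPM for TUBB3, 31.4 to 262 CPM for DDC, and, named after their values were seen, 67.5 to 109 CPM for CPE, 37.1 to 52.2 CPM for PCSK1N and 34 to 61.8 CPM for ONECUT2. The markers thus did not go together, and the genes are treated below as a set of marker genes without calling the cells neuroendocrine. Among 13 markers of basal, fibroblast, endothelial, immune and glial cells, 7 had at most 3 reads in every library. KRT5 and CD3E were at 0 throughout, and the summed level of the 13 ranged from 42.8 to 75.1 CPM over libraries, most of it from MBP and COL1A1.

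Promoter sequence from RefSeq on GRCh38.p14, taken as 250 bases before and 50 after the start site, was at hand for 6 of the 9 genes (ENO2, CHGA, SYP, SCG3, TUBB3 and REST, of which TUBB3 and REST have 2 start sites each). The 250 bases before the start site are printed for ENO2, the marker that fell with R1881, for CHGA, the classical granin that stayed near 0, and for the second start site of TUBB3, so that their base composition can be compared. Capitals mark a GC box (GGGCGG), which binds SP-family factors, and in CHGA also a cAMP response element (TGACGTCA), on either strand.
ENO2, chr12:6914330-6914579, plus strand: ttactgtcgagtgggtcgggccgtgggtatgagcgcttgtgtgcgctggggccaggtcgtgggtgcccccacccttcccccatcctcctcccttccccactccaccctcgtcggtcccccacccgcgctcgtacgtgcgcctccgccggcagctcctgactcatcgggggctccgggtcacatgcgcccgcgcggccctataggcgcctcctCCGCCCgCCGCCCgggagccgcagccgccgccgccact
CHGA, chr14:92922900-92923149, plus strand: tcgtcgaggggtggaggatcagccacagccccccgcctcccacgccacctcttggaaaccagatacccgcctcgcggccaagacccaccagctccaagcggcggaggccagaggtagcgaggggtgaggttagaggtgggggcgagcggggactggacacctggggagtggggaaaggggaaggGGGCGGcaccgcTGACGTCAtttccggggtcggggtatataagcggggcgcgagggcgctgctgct
TUBB3, chr16:89923092-89923341, plus strand: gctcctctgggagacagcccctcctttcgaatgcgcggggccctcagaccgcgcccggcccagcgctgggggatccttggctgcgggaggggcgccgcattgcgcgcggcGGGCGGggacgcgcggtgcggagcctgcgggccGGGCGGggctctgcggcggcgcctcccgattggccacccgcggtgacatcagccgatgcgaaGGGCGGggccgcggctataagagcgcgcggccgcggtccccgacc

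GC content over the whole 300 bases was 75% for ENO2, 69.3% for CHGA and 79% for the second TUBB3 start, against a median of 58.7% over 35116 promoters, and the number of CpG dinucleotides was 38, 24 and 47 against a median of 14. The first TUBB3 start differed, with 65.3% GC, 9 CpG dinucleotides and no GC box. The cAMP response element of CHGA began 54 bases before the start site, and 1.85% of all promoters of that length hold the element on either strand. A GC box was present in 45% of all promoters, in ENO2 at 38 and 31 bases before the start. The RE1 element of REST was searched as TTCAGCACC and GGACAG with 2 bases between, and the androgen response element as AGAACA and TGTTCT with 3 bases between, on both strands and with overlaps allowed. With up to 2 mismatches these were found in 0.188% and 1.41% of all promoters and in none of the 8 promoters of the markers, whose nearest matches had 4 to 6 mismatches for each. That says only that the letters are not in these windows.

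The granins and INSM1 gave almost no reads. CHGA, the precursor of several secreted peptides, had 3 reads in all over 28 libraries and was at 0 in 25 of them. CHGB had 14 reads in all, with at most 2 in a library and 0 in 16. INSM1 had none, so at the floor of 3 counts used here its level was under 0.305 CPM (by library total, without TMM) even in the shallowest library. SCG2 had 35 reads in all, at most 4 in a library, and SCG3, which helps to gather granins into the vesicle, had 59, at most 7.

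**Figure D1:**
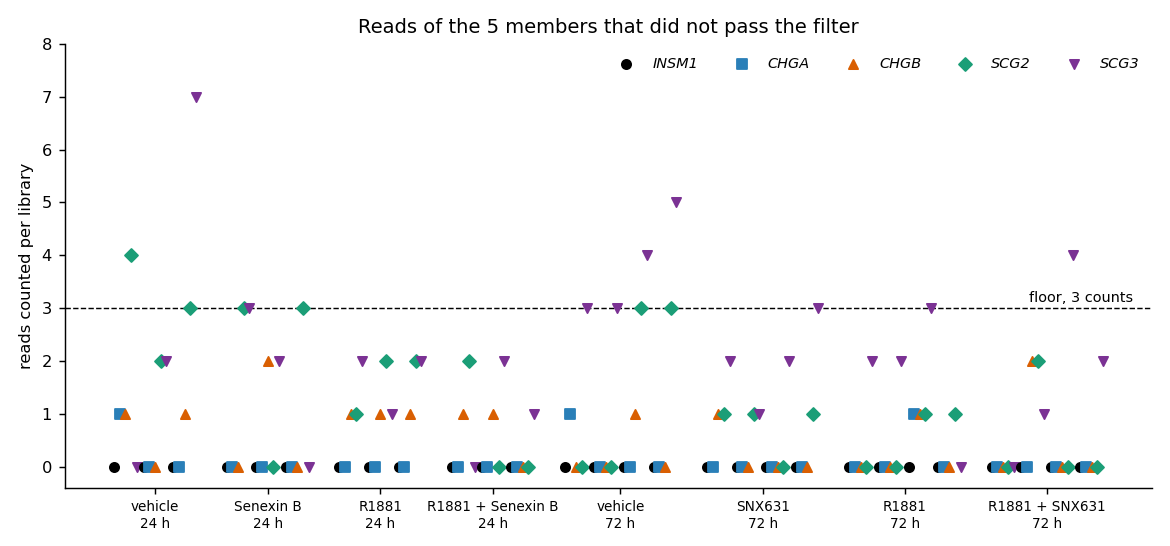
Reads counted for INSM1, CHGA, CHGB, SCG2 and SCG3 (y axis) in each of the 28 libraries, grouped by treatment (x axis), with 1 symbol per gene and library and a dashed line at the floor of 3 counts. INSM1 lies at 0 throughout, and the highest point is SCG3 with 7 reads in the deepest library, a 24 h vehicle.

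Reads of SCG2 and SCG3 can be given group by group. SCG2 had 4, 2 and 3 reads in the 24 h vehicle libraries, 3, 0 and 3 with Senexin B, 1, 2 and 2 with R1881, and 2, 0 and 0 with both. At 72 h it had 0, 0, 3 and 3 reads with vehicle, 1, 1, 0 and 1 with SNX631, 0, 0, 1 and 1 with R1881, and 0, 2, 0 and 0 with both. SCG3 was at 0 to 7 reads in every 24 h library and at 3, 3, 4 and 5 reads in the 72 h vehicle libraries, against 2, 1, 2 and 3 with SNX631, 2, 2, 3 and 0 with R1881 and 0, 1, 4 and 2 with both. None of these genes entered a test, and differences between groups at or under the floor were not detectable at this depth.

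ENO2 (ENSG00000111674, chr12:6913745-6923698, plus strand, GENCODE 29 on GRCh38) encodes gamma enolase, which serves as a tissue and serum marker of neuroendocrine tumors. With vehicle for 24 h its level was 39.3, 41.1 and 41.9 CPM, and with R1881 it was 17.5, 23.1 and 22.0 CPM. The groups did not overlap, and the log2 fold change was -0.98 ± 0.079 (SE), a change of -49.1% at an FDR of 9.09e-13. In the 72 h experiment the vehicle libraries held 43.2, 43.6, 41.4 and 42.4 CPM and the R1881 libraries 21.3, 22.2, 23.3 and 24.3 CPM. Here too the groups stood apart, with a log2 fold change of -0.91 ± 0.053, a change of -46.7% at an FDR of 3.93e-18. The R1881 effect on ENO2 at 72 h minus that at 24 h was 0.07 on the log2 scale (95% interval -0.12 to 0.26, FDR 0.705), so a difference between the experiments was not shown.

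ENO2 also fell with R1881 when the Mediator kinases were inhibited. With Senexin B alone it was at 40.2, 45.6 and 40.1 CPM and with R1881 and Senexin B at 23.8, 24.6 and 28.3 CPM, a log2 fold change of -0.71 ± 0.077 (FDR 1.26e-09). With SNX631 alone it was at 42.4, 39.9, 42.4 and 42.7 CPM and with both at 22.1, 22.8, 21.8 and 22.0 CPM, a log2 fold change of -0.93 ± 0.05 (FDR 6.18e-19). All 14 libraries with R1881 were thus below all 14 libraries without it. The inhibitors alone did not pass the test for ENO2, with log2 fold changes of 0.02 (95% interval -0.11 to 0.16) for Senexin B and -0.03 (-0.12 to 0.06) for SNX631. In the presence of R1881, ENO2 was 22.3% higher with Senexin B, at an FDR of 0.0116 that missed the limit. With SNX631 in the presence of R1881 the difference was -3.62% (FDR 0.51). The groups with R1881 and with R1881 and Senexin B did not overlap. The share of all genes whose groups did not overlap was not counted in any comparison. The interaction of R1881 and inhibitor was 0.27 ± 0.11 at 24 h (FDR 0.191) and -0.02 ± 0.073 at 72 h (FDR 0.918), and neither passed.

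**Figure D2:**
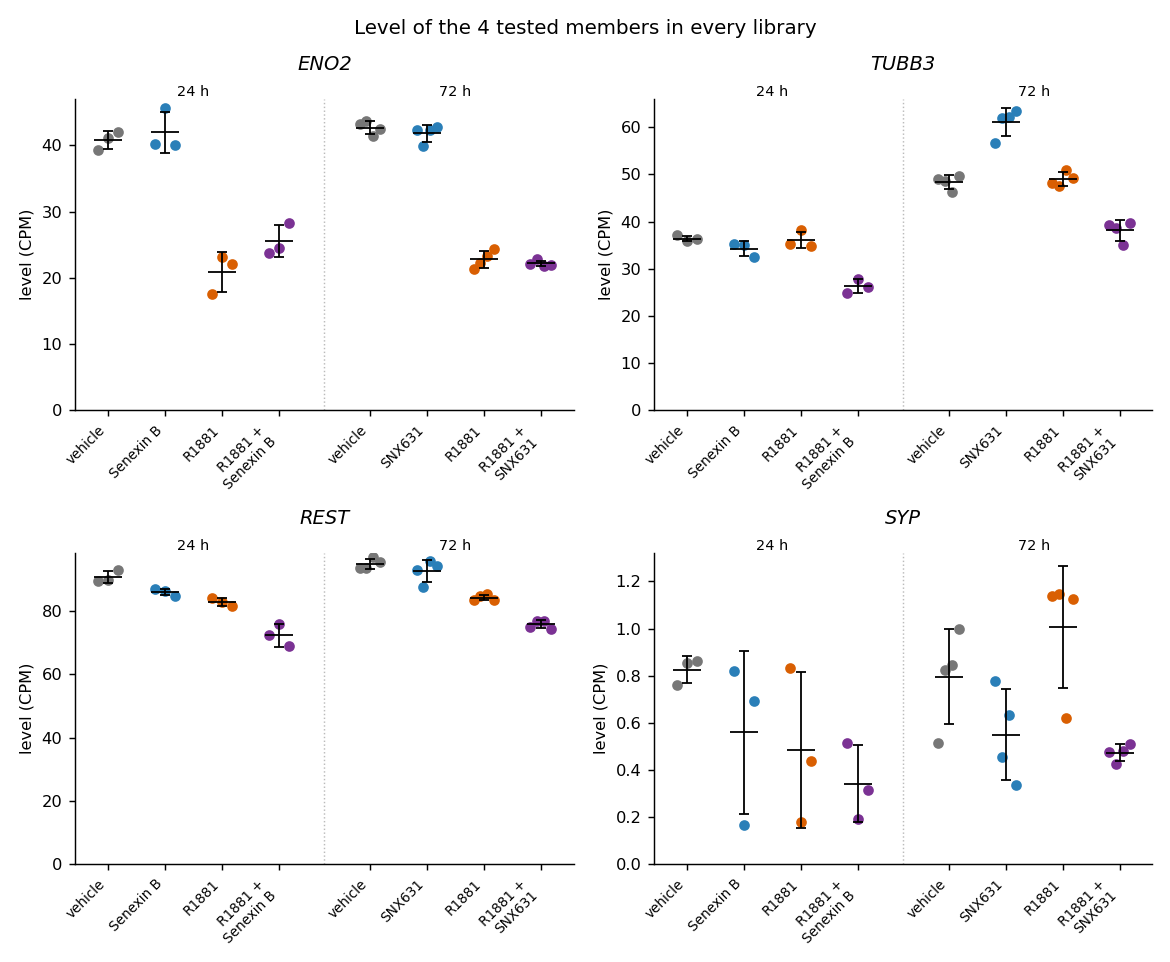
Level in CPM (y axes, from 0) of ENO2, TUBB3, REST and SYP in every library by treatment group and time (x axes), with 1 point per library and bars for the mean ± SD of 3 (24 h) or 4 (72 h) libraries. ENO2 in the 14 libraries with R1881 lies at or below 28.3 CPM and in the 14 without it at or above 39.3 CPM, TUBB3 is highest with SNX631 alone and lowest with R1881 and Senexin B, and SYP is near 1 CPM or below.

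Ordered by mean level, ENO2 fell into 2 blocks. The 4 groups without R1881 had means from 40.8 to 42.7 CPM, and neighbours in that order overlapped. The 4 groups with R1881 had means from 20.9 to 25.5 CPM and neighbours overlapped as well, while the step between the blocks did not. The vehicle groups of the experiments differed by 3.82% (FDR 0.435).

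ENO2 was a minor part of enolase expression in these cells. Per length, as CPM per kilobase of exon (RPKM), ENO2 was at 9.53 ± 0.31 (SD, n = 3) and ENO1, the ubiquitous alpha enolase, at 183 ± 1.51 RPKM in the 24 h vehicle group. ENO3, the muscle form, was at 2.74 and ENO4 at 0.163 RPKM. With R1881 alone ENO1 had a log2 fold change of 0.44 at 24 h and 0.52 at 72 h, both under the fold limit, and it rose with R1881 in the presence of SNX631 (0.63 ± 0.02, FDR 2.53e-26, or 0.52 and under the fold limit with library totals only). ENO3 had values of -0.32 and -0.30 with R1881 alone, neither past the limits. The ENO1 to ENO2 ratio of RPKM was 19.2 ± 0.79 with vehicle and 51.6 ± 7.62 with R1881 at 24 h, and 16.6 ± 0.441 and 44.8 ± 2.69 at 72 h. ENO2 thus made up 4.88% of summed enolase RPKM with vehicle and 1.91% with R1881 at 24 h, and 5.57% and 2.16% at 72 h.

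**Figure D3:**
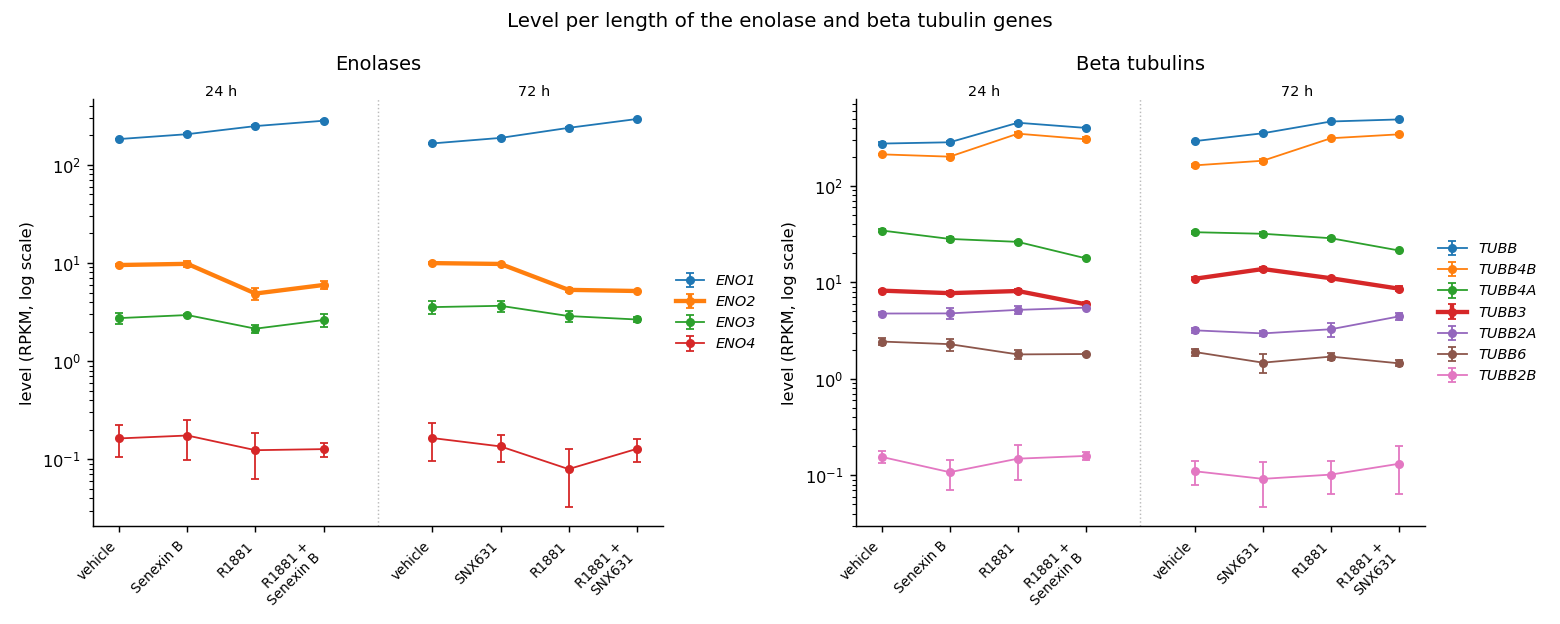
Mean level per length in RPKM (y axes, log scale) of the enolase genes (left) and of the beta tubulin genes above 0.05 RPKM in every group (right) by treatment group and time, with bars for the SD of 3 or 4 libraries and lines only to join the groups of a gene. ENO2 lies 16.6- to 21.0-fold below ENO1 without R1881 and 44.8- to 56.5-fold below it with R1881, and TUBB3 lies below TUBB, TUBB4B and TUBB4A throughout.

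TUBB3 (ENSG00000258947, chr16:89921392-89938761, plus strand) encodes class III beta tubulin of neuronal microtubules. Its count is uncertain in level: a gene on the same strand that starts before it and runs through into it (ENSG00000198211, chr16:89919165-89936092) shares 1584 exon bases with it, 35.8% of TUBB3's exon length. The ratio of TUBB3 to that gene's counts lay between 0.978 and 1.03 in all 28 libraries, and 17 of the 28 TUBB3 counts were fractional. How reads in the shared exons were divided is not given in the sources used here. The sum of both genes was 1.98 to 2.02 times the TUBB3 count, so the TUBB3 levels and shares given here would be up to that much higher if all these reads came from TUBB3. They would be lower to the extent that reads counted for TUBB3 came from the other gene. Summing both rows, an alternative chosen after seeing the data, changed no call for TUBB3. The near-constant ratio fixed that outcome in advance, so it does not show which gene the reads came from.

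R1881 alone left TUBB3 within the spread of the libraries. At 24 h the vehicle libraries held 37.1, 35.9 and 36.2 CPM and the R1881 libraries 35.3, 38.1 and 34.8 CPM, a log2 fold change of -0.01 (95% interval -0.13 to 0.10, FDR 0.872). At 72 h they held 48.9, 48.7, 46.2 and 49.6 CPM with vehicle and 48.1, 47.5, 50.9 and 49.2 CPM with R1881, a log2 fold change of 0.01 (-0.08 to 0.11, FDR 0.852). The groups overlapped at both times.

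In the presence of an inhibitor, TUBB3 was lower with R1881 than without it. With SNX631 alone it was at 56.6, 61.9, 62.1 and 63.3 CPM and with R1881 and SNX631 at 39.2, 38.6, 35.0 and 39.8 CPM. These groups did not overlap, and TUBB3 fell by 0.69 ± 0.046 on the log2 scale (FDR 2.69e-16). With Senexin B alone it was at 35.2, 35.1 and 32.5 CPM and with both at 24.9, 27.8 and 26.1 CPM, a log2 fold change of -0.39 ± 0.064 (FDR 4.60e-06), which was under the fold limit. These groups did not overlap either. The interaction, which tests whether the R1881 effect differs with and without inhibitor, was called at 72 h (-0.71 ± 0.066, FDR 2.36e-10) and had an FDR of 0.0068 at 24 h, where its size of -0.38 ± 0.086 was under the fold limit.

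Seen from the inhibitor side, the effect of SNX631 on TUBB3 differed in sign with androgen. SNX631 alone gave a level 25.9% above vehicle (log2 0.33 ± 0.044, FDR 1.24e-07), and with R1881 present it gave a level 22.8% below R1881 alone (log2 -0.37 ± 0.048, FDR 4.66e-08). In both cases the groups did not overlap, and both were under the fold limit of 1.5. Senexin B alone gave -0.09 ± 0.056 (FDR 0.238) and with R1881 -0.46 ± 0.065 (FDR 1.38e-06), the latter under the fold limit. The effect of the inhibitor without R1881 differed between the experiments by 0.42 on the log2 scale (95% interval 0.28 to 0.56, FDR 6.75e-05, SNX631 at 72 h minus Senexin B at 24 h), a difference under the fold limit, whereas with R1881 it differed by 0.10 (-0.06 to 0.26, FDR 0.556).

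TUBB3 also stood higher in the later experiment, 33.1% higher in vehicle cells at 72 h than at 24 h (log2 0.41 ± 0.048, FDR 9.03e-10), under the fold limit. In the order of mean levels the 72 h group with SNX631 came first at 61 CPM, apart from the next. The 72 h groups with R1881 and with vehicle followed at 48.9 and 48.3 CPM and overlapped. R1881 with SNX631 (38.1 CPM), then vehicle, R1881 and Senexin B at 24 h (36.4, 36.1 and 34.3 CPM) formed a run of overlapping neighbours, and R1881 with Senexin B was lowest and apart at 26.3 CPM.

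**Figure D4:**
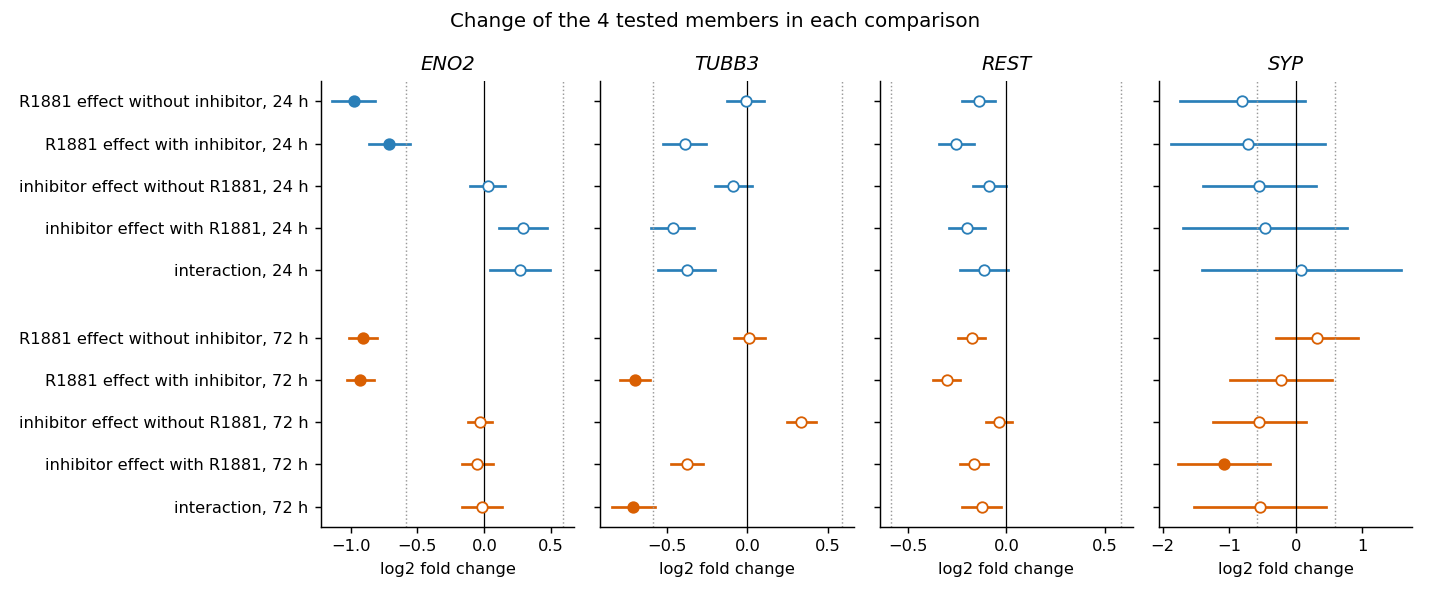
Log2 fold change (x axes, which differ in range) of ENO2, TUBB3, REST and SYP in the 10 comparisons (y axis) at 24 h (blue) and 72 h (orange), with lines for the 95% interval, filled circles for changes that passed both limits and dotted lines at a fold change of 1.5. ENO2 is filled in the 4 R1881 comparisons, TUBB3 in the R1881 effect with SNX631 and in the interaction at 72 h, SYP once, and REST never.

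The other beta tubulins did not share a direction with R1881 alone. TUBB and TUBB4B, the main forms of dividing cells, rose with R1881 at both times, TUBB by 0.71 ± 0.032 and 0.67 ± 0.019 and TUBB4B by 0.71 ± 0.037 and 0.93 ± 0.027 on the log2 scale. With scaling by library totals only, which moved the median of all genes for R1881 at 72 h to -0.116, TUBB was at 0.57 at 72 h, under the fold limit, and TUBB2A and TUBB3 were at -0.07 and -0.09. TUBB4A, like TUBB3 a form known from neurons, had -0.40 and -0.21 with R1881 alone, under the fold limit, and fell with R1881 in the presence of Senexin B (-0.67 ± 0.045, FDR 2.01e-14) and of SNX631 (-0.59 ± 0.037, FDR 6.07e-17). The latter lay at the fold limit and was not called without replicate 2 of SNX631 (-0.56) or replicate 4 of R1881 with SNX631 (-0.58), nor in the fit of all 28 libraries (-0.58), with the DESeq2 Wald test (-0.58) or with no filter on low counts (-0.56). Its interaction of -0.27 at 24 h and -0.38 at 72 h was not called. At the FDR limit alone, 3 of the 6 beta tubulins tested, TUBB3 among them, had a negative interaction at each time. None had a positive one, and 2.09% of all genes passed at 24 h and 7.09% at 72 h. A negative interaction was thus not particular to TUBB3. TUBB2A (0.12 and 0.03) and TUBB6 (-0.47 and -0.16) were not called with R1881 alone, and TUBB1, TUBB2B and TUBB8 were too low to test. Per length, TUBB3 made up 1.53% of summed beta tubulin RPKM in the 24 h vehicle group and 0.968% with R1881, and 2.16% and 1.34% at 72 h, falling to 0.992% with R1881 and SNX631. Parts of the beta tubulin genes are near-identical to each other and to pseudogenes, so the split of reads between them is uncertain.

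REST (ENSG00000084093, chr4:56907876-56966678, plus strand) was the most abundant of the 9 genes by count, and its level moved little. At 24 h it was at 89.6, 89.7 and 93.0 CPM with vehicle, 86.8, 86.5 and 84.8 with Senexin B, 84.1, 82.8 and 81.7 with R1881, and 72.3, 76.1 and 68.8 CPM with both. At 72 h it was at 93.8, 93.6, 97.0 and 95.4 CPM with vehicle, 93.1, 87.7, 96.0 and 94.2 with SNX631, 83.6, 84.9, 85.3 and 83.4 with R1881, and 75.0, 77.0, 76.8 and 74.5 CPM with both. The combination of R1881 and inhibitor gave the lowest level in each experiment, and the R1881 and vehicle groups did not overlap at either time.

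No comparison of REST reached the fold limit. R1881 alone gave -0.14 ± 0.041 at 24 h (FDR 0.00432) and -0.18 ± 0.034 at 72 h (FDR 2.57e-05). With inhibitor present R1881 gave -0.25 ± 0.044 with Senexin B (FDR 9.36e-06) and -0.30 ± 0.034 with SNX631 (FDR 4.67e-10). Inhibitor in the presence of R1881 gave -0.20 ± 0.045 (FDR 0.00083) and -0.16 ± 0.035 (FDR 0.000167), so REST passed the FDR limit in these 6 comparisons. The inhibitors alone gave -0.09 ± 0.04 (FDR 0.0961) and -0.04 ± 0.033 (FDR 0.389), and the interactions -0.11 ± 0.06 (FDR 0.354) and -0.13 ± 0.048 (FDR 0.0796). A small change is often past the FDR limit in these data: 48.4% of all genes passed that limit alone for R1881 at 24 h and 52.2% at 72 h.

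SRRM4, the splicing factor known to make a shortened REST in neuroendocrine tumors, had at most 3 reads in a library, and splice forms of REST cannot be read from gene counts. Of the 22 genes in the list of REST and its corepressor partners all were tested. R1881 alone lowered 2 and raised none at 24 h, and lowered 2 and raised 1 at 72 h, with medians of -0.08 and -0.09 against -0.02 and -0.01 for all genes. Of all genes tested 19.0% and 19.8% were called. At the FDR limit alone 9 genes of the list were higher and 8 lower at 24 h, and 8 higher and 8 lower at 72 h, where 48.4% and 52.2% of all genes passed. RCOR2, a paralog of the corepressor CoREST, fell at both times (-1.03 ± 0.218 and -1.20 ± 0.175). The others called, named here after their values were seen, were ZNF217 (-0.63) at 24 h and PHF21A (-0.60) and HMG20B (0.62) at 72 h. For the inhibitors none of the 22 was called, where 3.12% to 4.77% of all genes were. At the FDR limit alone 1 was higher and 9 lower with Senexin B alone, 2 and 10 with Senexin B added to R1881, 3 and 9 with SNX631 alone, and 1 and 9 with SNX631 added to R1881, where 22.7% to 33.1% of all genes passed.

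SYP (ENSG00000102003, chrX:49187804-49200259, minus strand) is an abundant membrane protein of small synaptic-like vesicles and a routine stain for neuroendocrine tumors. It had 8, 12 and 30 reads in the 24 h vehicle libraries, 11, 2 and 9 with Senexin B, 9, 2 and 5 with R1881, and 6, 2 and 4 with both. At 72 h it had 6, 11, 10 and 13 reads with vehicle, 9, 6, 8 and 4 with SNX631, 11, 14, 7 and 13 with R1881, and 6, 6, 7 and 7 with both. All group means were between 0.342 and 1.01 CPM, and neighbours in the order of means overlapped throughout.

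A single comparison of SYP passed both limits, R1881 with SNX631 against R1881 alone at 72 h (-1.08 ± 0.343, FDR 0.00737), in which the levels of 0.427 to 0.511 CPM did not overlap with those of 0.619 to 1.15 CPM. The call was lost without replicate 1, 2 or 4 of R1881 (FDR 0.0219, 0.0297 and 0.0256) and without any 1 library of R1881 with SNX631 (FDR 0.0135 to 0.0212), with the replicate block (FDR 0.0113), in the fit of all 28 libraries (FDR 0.0132) and without the filter on low counts (FDR 0.0181). R1881 alone gave -0.80 ± 0.462 at 24 h (FDR 0.117) and 0.32 ± 0.304 at 72 h (FDR 0.378), and the difference between these, 1.12 with a 95% interval from 0.03 to 2.21, did not pass (FDR 0.163).

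The counts of markers called can be read against all genes. Of the 4 markers tested, 1 was called for R1881 alone at 24 h and 1 at 72 h, where 19.0% and 19.8% of all genes tested were called. For R1881 in the presence of inhibitor 1 was called at 24 h and 2 at 72 h, against backgrounds of 18.9% and 22.0%. The inhibitor alone called none at 24 h and none at 72 h (3.79% and 4.77% of all genes), and in the presence of R1881 none at 24 h and 1 at 72 h (3.12% and 4.12%). The interaction called none at 24 h and 1 at 72 h, TUBB3, where 0.577% and 1.19% of all genes were called. With 4 genes such shares are coarse. At the FDR limit alone, 2 of 4 passed for R1881 alone at each time, where 48.4% of all genes passed at 24 h and 52.2% at 72 h. For R1881 with inhibitor 3 of 4 passed at each time, where 47.5% of all genes passed at 24 h and 57.3% at 72 h. For the inhibitor alone these counts were 0 and 1 (25.1% and 26.9% of all genes), with R1881 present 2 and 3 (22.7% and 33.1%), and for the interaction 1 and 1 (2.09% and 7.09%).

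No marker was called in the contrasts between experiments. Called shares of all genes were 5.97% for vehicle at 72 h against 24 h, 1.88% for the R1881 effect, 0.474% for the inhibitor effect without R1881 and 0.210% for the inhibitor effect with it.

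The wider lists put the markers in context, and each is described by counts only, since the lists were written with earlier results of these data known. Of 21 granins and dense-core vesicle proteins, 7 had at most 3 reads in every library. R1881 alone raised 2 and lowered 1 of 9 tested at 24 h, and raised 4 and lowered 2 of 10 at 72 h, with medians of 0.28 at both times. For R1881 alone 19.0% and 19.8% of all genes tested were called, with medians of -0.02 and -0.01. VGF, the precursor of neuroendocrine peptides, rose from 0.8 to 3.6 CPM at 24 h and from 1.0 to 2.4 CPM at 72 h (log2 2.00 ± 0.262 and 1.25 ± 0.264), and CADPS2, a priming factor of dense-core vesicle release, rose by 1.75 ± 0.187 and 1.70 ± 0.215. PAM, the enzyme that amidates peptides, fell by 0.77 ± 0.0861 and 0.84 ± 0.093. The further genes called at 72 h, named after their values were seen, were PTPRN2 (0.96 ± 0.161) and SYT4 (1.00 ± 0.126), both higher, and SYT11, lower, which had at most 3 reads in each 72 h R1881 library. VGF was also the gene of this list called for an inhibitor in more than 1 comparison, higher with Senexin B alone (1.11 ± 0.284, FDR 0.011 and 0.0124 without replicate 2 or 3 of Senexin B) and with SNX631 in the presence of R1881 (0.82 ± 0.185).

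Synaptic vesicle and exocytosis genes were mixed. R1881 alone raised 1 and lowered 2 of 16 tested at 24 h, and raised 1 and lowered 1 of 15 at 72 h, with medians of -0.29 and -0.18. The called shares of all genes were 19.0% and 19.8%, and their medians -0.02 and -0.01. RAB3B, a small GTPase of regulated exocytosis, rose from 53 to 182.5 CPM at 24 h and from 41.1 to 175.7 CPM at 72 h. SYNGR3, a synaptic vesicle protein related to synaptophysin, fell by 1.21 ± 0.0944 and 0.82 ± 0.102, and SYNGR1, named after its values were seen, fell by 0.67 ± 0.0795 at 24 h.

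**Figure D5:**
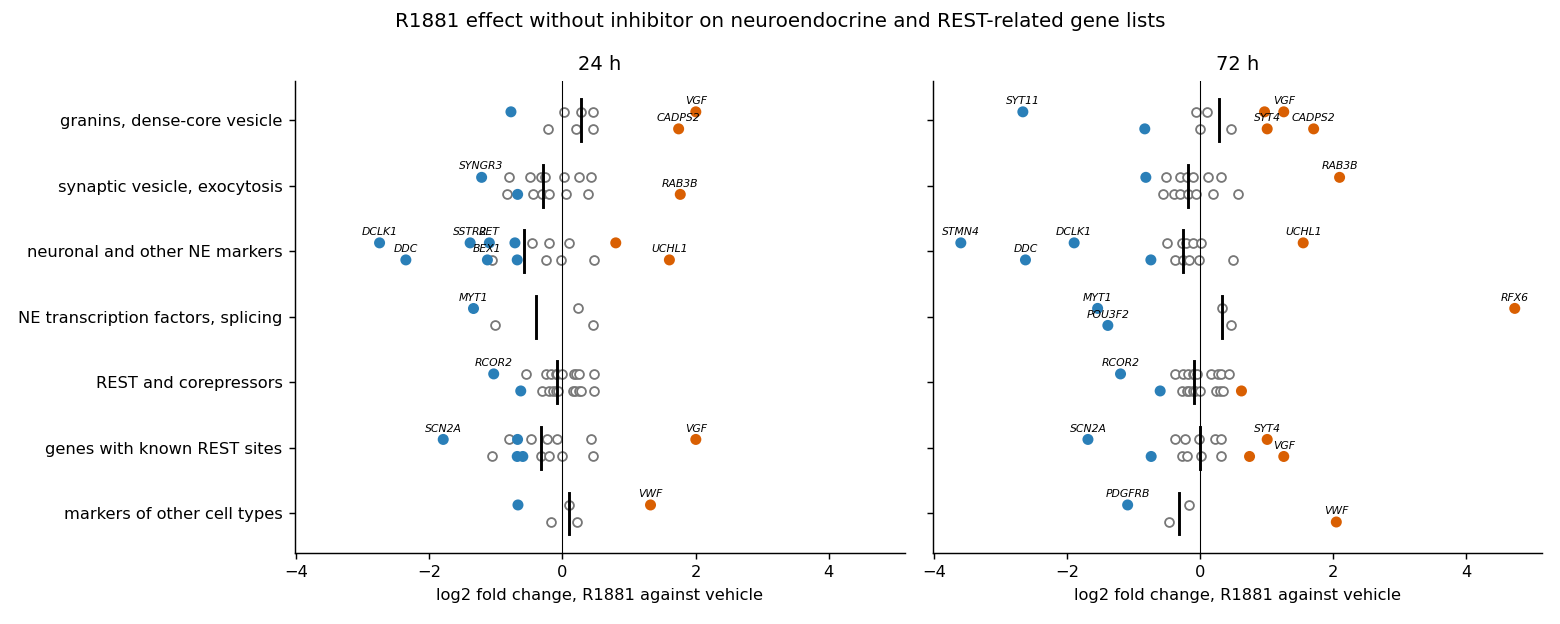
Log2 fold change of R1881 against vehicle without inhibitor (x axes) at 24 h (left) and 72 h (right) for each tested gene of 7 lists (y axis), with 1 point per gene, filled blue or orange where it fell or rose past both limits, a black bar at the list's median, and names for called genes that changed over 2-fold. DDC, DCLK1, MYT1, RCOR2 and SCN2A lie to the left and VGF, CADPS2, RAB3B and UCHL1 to the right at both times, and RFX6, STMN4 and SYT11 had few reads in 1 of the groups compared.

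Among 34 neuronal cytoskeleton and other neuronal or neuroendocrine markers, 12 had at most 3 reads in every library, and more of the tested genes fell than rose with R1881 alone: 7 fell and 2 rose of 16 at 24 h, and 4 fell and 1 rose of 15 at 72 h. The medians were -0.57 and -0.26 against -0.02 and -0.01 for all genes. Of all genes tested, 19.0% were called at 24 h (1565 higher, 1465 lower) and 19.8% at 72 h (1559 higher, 1626 lower). DDC, the aromatic amino acid decarboxylase of monoamine synthesis, was the most abundant gene of these to fall, from 262 to 51.3 CPM at 24 h (log2 -2.35 ± 0.0494) and from 193 to 31.4 CPM at 72 h (-2.63 ± 0.0468). Its interaction was called at both times, 0.66 ± 0.0702 and 0.60 ± 0.0635 (0.58 and under the fold limit without replicate 2 or replicate 3 of R1881 at 72 h), so the log2 fall with R1881 was smaller when an inhibitor was present. That fall started from a lower level: DDC was at 175 CPM with Senexin B alone and 145 CPM with SNX631 alone, neither called against vehicle. With R1881 added it was at 54.2 and 36.0 CPM, near the levels with R1881 alone. MAPT, the microtubule protein tau, fell by 0.71 ± 0.0586 and 0.74 ± 0.0642, and DCLK1, a doublecortin-like kinase, fell by 2.75 ± 0.533 and 1.90 ± 0.521 from levels near 1 CPM. UCHL1, the neuronal ubiquitin hydrolase PGP9.5, went the other way and rose by 1.61 ± 0.25 and 1.55 ± 0.242. The list's other calls at 72 h alone numbered 1, STMN4, named after its values were seen, which had at most 1 read in each 72 h R1881 library.

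Of 24 neuroendocrine transcription factors and splicing regulators, 14 had at most 3 reads in every library and 4 or 5 were tested. MYT1, a neuronal zinc-finger factor, fell with R1881 at both times (-1.34 ± 0.115 and -1.54 ± 0.0976). POU3F2 (lower, -1.39 ± 0.364) and RFX6 (higher) were called at 72 h and are named after their values were seen. RFX6, a factor of pancreatic endocrine cells, had 0.182 CPM with vehicle and 5.08 CPM with R1881 at 72 h. ONECUT2, known from neuroendocrine prostate cancer, was at 34 CPM in the 24 h vehicle group and 61.8 CPM with R1881 and SNX631 at 72 h, and it was not called in any comparison within an experiment.

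Of 40 genes known to carry REST sites, 17 had at most 3 reads in every library. R1881 alone raised 1 and lowered 4 of 15 at 24 h, and raised 3 and lowered 2 of 14 at 72 h, with medians of -0.33 and -0.004. For all genes the called shares were 19.0% and 19.8% and the medians -0.02 and -0.01. SCN2A, a neuronal sodium channel, fell at both times (-1.79 ± 0.357 and -1.69 ± 0.442). DISP2 was lower with either inhibitor alone (-0.99 ± 0.174 and -0.95 ± 0.179). The other genes called with R1881 alone, named after their values were seen, were STMN3, CELSR3 and KCNH2 (lower at 24 h), VGF and SYT4 as given above, DISP2 (0.74 ± 0.138, higher at 72 h) and RUNDC3A (-0.74 ± 0.212, lower at 72 h). REST itself differed by -9.28% and -11.5% in these comparisons.

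Luminal markers and markers of other cell types also moved with R1881. Of 14 luminal markers 6 rose and 2 fell at 24 h, and 8 rose and 2 fell at 72 h, where 19.0% and 19.8% of all genes were called. KLK2 and KLK3 rose most, and in the presence of R1881 both were lower with Senexin B and with SNX631, KLK3 by 1.92 ± 0.0551 and 1.59 ± 0.0437 on the log2 scale. TMPRSS2 rose with R1881 at both times, by 3.72 ± 0.0584 and 4.10 ± 0.0556. Of 13 markers of other cell types 5 were tested at 24 h and 4 at 72 h. VWF rose with R1881 at both times (1.32 ± 0.261 and 2.04 ± 0.252) from about 1 CPM, COL1A1 fell at 24 h (-0.67 ± 0.0789) and PDGFRB, named after its values were seen, fell at 72 h (-1.09 ± 0.27). COL1A1 was lower with inhibitor in all 4 inhibitor comparisons, by 0.62 to 1.05 (SNX631 alone at 72 h gave -0.58, under the fold limit, without its replicate 3). Whether other cells took part in the changes of the markers was not tested, and in bulk RNA fewer cells that express a gene and less RNA per cell cannot be told apart.

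Other genes followed the 3 measured markers across libraries. Over the 28 libraries and 14904 genes with a mean of at least 1 CPM, the genes with the highest Pearson correlation of log2 CPM with ENO2 were C1QTNF6 (0.986), NIPSNAP3A (0.98) and GRB10 (0.974). For TUBB3 they were the read-through gene that shares its reads (0.999), SOX4 (0.961) and ZSCAN2 (0.946), and for REST they were PRAME (0.967), CHD6 (0.962) and P3R3URF-PIK3R3 (0.959). These libraries share 8 treatment groups, so the correlations describe a like order of groups.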

How the data were processed

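RNA-seq was done on 28 LNCaP libraries. The authors deposited a table of expected counts per gene (16.9% of values above 0 have a fractional part), per the submitters' processing notes with cutadapt 2.8, STAR 2.7.2b and featureCounts of Subread 2.0.3 on GRCh38.p13 (GRCm39 is also named). The annotation release behind the table is not given in the sources used here, and gene positions and lengths are from GENCODE 29. From these, counts were rounded to whole numbers, 2 rows that name no human gene (0 counts) were left out, and genes were filtered with filterByExpr (minimum count 10, minimum total 15), leaving 15948 genes at 24 h and 16074 at 72 h. The 24 h and 72 h libraries were fitted separately, 4 groups each, with edgeR 4.0.16 (TMM, quasi-likelihood test, Benjamini-Hochberg adjustment) in R 4.3.3, and contrasts between experiments with all 28 libraries. A gene was called at FDR below 0.01 with more than 1.5-fold change. SE are Wald errors, intervals are 95%. The edgeR and DESeq2 fits were tested on simulated data for the R1881 effect without inhibitor in each experiment, and the other steps were not.

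Depth was 9846595 to 33809419 counts per library, and the floor of 3 counts was 0.0887 to 0.305 CPM by library totals without TMM. Floors cover counting error only.

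The 9 genes and the lists were chosen with earlier results of these data known. All 9 were named in every comparison, as were the enolases and beta tubulins, KLK3 and SRRM4. Of each list, up to 4 genes were named by the largest mean R1881 effect among those called alike in both experiments, and up to 2 by the mean inhibitor effect among those called alike in at least 2 of 4 comparisons. For each marker with a mean of at least 1 CPM, the 3 genes most like it were named. The alternatives tried were library totals only or DESeq2 size factors in place of TMM, no filter, DESeq2 1.42.0, rounding down, an FDR of 0.05 with no fold limit, a replicate block, all 28 libraries and leaving out each library. The sum of TUBB3 with its overlapping gene, the list counts and the shift of all genes were added after seeing the data. Some genes of the lists are not reported here.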

Additional observations from a re-analysis of the deposited data

Results flagged for a closer look

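In 16 groups of levels at 72 h (4 markers in 4 groups) tested for a library that stands apart, where chance picks about 1 in 20, 2 did. The 24 h groups, with 3 libraries each, were not tested in this way. ENO2 was at 39.9 CPM in replicate 2 of SNX631 at 72 h, below the other 3 libraries at 42.4 to 42.7 CPM, and SYP was at 0.619 CPM in replicate 3 of R1881 at 72 h, below the others at 1.12 to 1.15 CPM.

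For TUBB3, the effect of R1881 differed with and without inhibitor by the interaction test, by -0.376 on the log2 scale at 24 h and by -0.705 at 72 h. The effect of inhibitor without R1881 on TUBB3 differed between the experiments by 0.42 on the log2 scale, where inhibitor, dose and time cannot be told apart.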

How the results depend on the processing

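The calls of ENO2 and TUBB3 were kept under every alternative run, and that of SYP was not. For an FDR under 0.05 with no fold limit, marker counts are given only where they left 0 or changed by more than 1.5-fold. At 24 h these were 2 for R1881 alone, 3 for R1881 with inhibitor, 3 for inhibitor with R1881 and 1 for the interaction. At 72 h they were 2 for R1881 alone, 1 for inhibitor alone and 3 for inhibitor with R1881. All genes called were then 9307, 9157, 5717, 5257 and 719 at 24 h and 9984, 10562, 5864, 6873 and 2034 at 72 h, in the order R1881 alone, R1881 with inhibitor, inhibitor alone, inhibitor with R1881 and interaction. The marker called for inhibitor with R1881 at 72 h (SYP) went to 0 called with DESeq2, with no filter, with the replicate block and with all 28 libraries, and leaving out each library gave 0 to 1.

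Directions of uncalled values turned. With library totals only these were ENO2 for inhibitor alone at 24 h (-0.01499), TUBB3 for R1881 alone at 72 h (-0.09117) and for its difference between experiments (-0.001426), TUBB2A for R1881 alone at 72 h (-0.06734) and SYP for the difference of inhibitor alone (0.009194, with no filter 0.02445 and rounded down 0.008005). Leaving out each library gave ranges across 0: TUBB3, R1881 effect without inhibitor, 24 h from -0.04255 to 0.02229, ENO2, inhibitor effect without R1881, 24 h from -0.02745 to 0.06207, SYP, inhibitor effect with R1881, 24 h from -0.8645 to 0.1499, SYP, interaction, 24 h from -0.3294 to 0.6886, TUBB2A, R1881 effect without inhibitor, 72 h from -0.08147 to 0.09682, TUBB3, R1881 effect without inhibitor, 72 h from -0.01209 to 0.0229, TUBB6, R1881 effect with inhibitor, 72 h from -0.1568 to 0.07443, ENO2, interaction, 72 h from -0.04403 to 0.01597, SYP, vehicle, 72 h against 24 h from -0.1908 to 0.08698, ENO2, R1881 effect, 72 h minus 24 h from -0.04056 to 0.1425, TUBB3, R1881 effect, 72 h minus 24 h from -0.003168 to 0.0619, ENO2, inhibitor effect without R1881, 72 h minus 24 h from -0.09967 to 0.003484 and SYP, inhibitor effect without R1881, 72 h minus 24 h from -0.3968 to 0.3594.

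Deviations of same-numbered libraries from their group means were weakly correlated (-0.0146 to 0.0668 at 24 h and -0.0678 to 0.0729 at 72 h). The mean correlation was 0.0144 for same and -0.00719 for different numbers at 24 h, and -0.00885 and 0.00296 at 72 h. Correlations this near 0 cannot decide whether the numbers pair samples, so pairing was neither shown nor excluded. Correlation was best with the own number in 7 of 12 libraries at 24 h and 2 of 16 at 72 h. With the replicate block, 3022 genes were called for R1881 alone at 24 h and 3173 at 72 h, and SYP at 72 h had -1.08 (FDR 0.0113).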
